A study of Homo sapiens with 2 samples.

Results

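The genes described here load peptides onto MHC class I molecules: HLA-B, HLA-C, HLA-E, B2M, TAP1, TAP2, TAPBP, PSMB8 and PSMB9. They were found as probe sets whose gene name in the array files is 1 of these 9 symbols. That gave 25 of the 45033 probe sets on each array, and 9 of 23619 genes. The groups were 1 array of HCT15 cells with a stable LYAR-shRNA and 1 array of HCT15 cells with a stable Scramble-shRNA. HCT15 is a colon cancer cell line, and both populations had been infected with a lentiviral hairpin vector and sorted by their GFP. Per the labels' protocols LYAR hairpins were built from 2 siRNA sequences, and the labels do not say in words which of them these cells carried. With 1 array per shRNA there is no replicate check, no test was possible, and every difference compares 2 arrays only.

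Class I molecules show fragments of a cell's own proteins to CD8 T cells. The proteasome cuts the proteins, and under interferon it takes up the inducible catalytic subunits encoded by PSMB8 and PSMB9. The TAP1-TAP2 transporter then pumps peptides into the endoplasmic reticulum, where tapasin, the product of TAPBP, holds the transporter next to empty class I molecules. Each molecule pairs a heavy chain, such as those of HLA-B, HLA-C or HLA-E, with the light chain beta-2-microglobulin, the product of B2M. Tumour cells of the colon are known to lose parts of this machinery, which lets them avoid T cells.

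The largest differences among the 9 genes belonged to TAP1 and PSMB9, which lie side by side on chromosome 6, and both were lower on the LYAR-shRNA array. TAP1 stood at 65.5% of its scramble-shRNA intensity and PSMB9 at 74.3%. The heavy chain genes HLA-B, HLA-C and HLA-E differed by -0.08 to 0.04 on the log2 scale, and 0 of the 9 genes reached 2-fold in either direction (5.06% of the 12682 genes whose brighter array reached an intensity of 105.9, here called passing, were 2-fold higher or more and 3.56% were 2-fold lower or more). A difference here is always the LYAR-shRNA log2 intensity less the scramble-shRNA one, so that -1 stands for 2-fold lower in LYAR-shRNA cells.

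TAP1 and PSMB9 point away from each other, and the DNA between their starts serves as promoter for both, as is known for this locus. RefSeq promoter windows, 250 bases before to 50 after a gene's start in GRCh38.p14, were at hand for 8 of the 9 genes, all but HLA-E. TAP1 and PSMB8 had 2 windows each, and the one at the start of the RefSeq gene was used. The shares over all windows given below count every window. The starts used here need not match the ends of the hg18 spans given further on. The windows of TAP1 (chr6:32853655-32853954, minus strand) and PSMB9 (chr6:32853942-32854241, plus strand) share 13 bases and are shown because these genes had the lowest differences. Those of B2M (chr15:44711267-44711566, plus strand) and HLA-B (chr6:31357130-31357429, minus strand) are shown beside them as chain genes without such a difference. Capitals mark matches, on either strand, to GAAA followed after 2 bases of any kind by GAAA (the core of an interferon-stimulated response element), GGGA followed after 4 bases by CC (a kappa B site), TGACGC (the core of the X2 box) or CCAAT (the Y box).
TAP1: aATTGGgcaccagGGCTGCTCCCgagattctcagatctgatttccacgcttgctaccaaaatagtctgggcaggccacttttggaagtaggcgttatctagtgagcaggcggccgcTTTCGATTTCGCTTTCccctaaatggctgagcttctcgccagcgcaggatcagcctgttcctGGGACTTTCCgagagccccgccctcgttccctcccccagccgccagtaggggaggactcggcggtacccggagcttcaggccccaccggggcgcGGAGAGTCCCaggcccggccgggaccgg
PSMB9: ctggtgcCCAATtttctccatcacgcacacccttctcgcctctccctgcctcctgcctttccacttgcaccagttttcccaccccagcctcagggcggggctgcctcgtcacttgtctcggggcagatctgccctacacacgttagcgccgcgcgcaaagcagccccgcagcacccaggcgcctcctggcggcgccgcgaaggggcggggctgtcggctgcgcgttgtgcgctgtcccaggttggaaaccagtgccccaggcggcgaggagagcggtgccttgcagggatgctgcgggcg
B2M: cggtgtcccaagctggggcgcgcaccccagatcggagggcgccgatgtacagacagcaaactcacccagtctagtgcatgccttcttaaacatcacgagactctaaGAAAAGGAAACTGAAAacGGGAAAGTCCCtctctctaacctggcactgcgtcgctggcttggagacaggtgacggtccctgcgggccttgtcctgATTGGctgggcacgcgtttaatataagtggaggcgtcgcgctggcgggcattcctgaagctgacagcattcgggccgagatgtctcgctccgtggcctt
HLA-B: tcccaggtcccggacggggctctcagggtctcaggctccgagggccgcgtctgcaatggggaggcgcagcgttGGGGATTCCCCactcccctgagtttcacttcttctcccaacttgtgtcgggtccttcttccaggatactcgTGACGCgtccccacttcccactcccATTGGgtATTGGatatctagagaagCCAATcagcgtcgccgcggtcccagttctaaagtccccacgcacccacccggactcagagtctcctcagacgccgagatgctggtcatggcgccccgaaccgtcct

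The interferon element core was found in 4 of the 8 windows (B2M, TAP1, TAP2 and TAPBP), against 3.57% of all 35116 windows in the RefSeq table. In TAP1 it matched 2 overlapping stretches, from -134 to -125 and from -128 to -119 relative to the start. The 4 genes with this core gave differences of both signs, from -0.61 for TAP1 to 0.24 for TAPBP. The kappa B site was found in 4 windows besides that of TAP1, namely those of HLA-B, HLA-C, B2M and TAPBP, so in 5 of 8 against 25.6% of all windows. In HLA-B and B2M it matched both strands of nearly the same bases. The X2 box core, which binds factors of the class I enhanceosome, was found in 3 windows (HLA-B, HLA-C and TAP2) against 9.14%, and the Y box in 5 against 34.6%. PSMB9's own window held a Y box alone. It lies in the bases shared with the TAP1 window and is the same box, read from the other strand, and it is counted in both windows. A match is a description of the letters and does not show that a factor binds.

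Among the genes of peptide supply, TAP1 encodes one chain of the peptide transporter. Its single probe set, at 32920963 to 32929726 on chromosome 6 in hg18, measured 2186 in LYAR-shRNA cells, against 3339 in scramble-shRNA cells. TAP1 was thus 1.53-fold lower on the LYAR-shRNA array, a difference of -0.61, and it was the only 1 of the 9 genes past 1.5-fold lower; none was past 1.5-fold higher. Among all passing genes 11.0% were 1.5-fold lower or more and 15.0% were 1.5-fold higher or more, so 1 of 9 is near this background. TAP1 was among the 4228 brightest of them, where these shares were 6.05% and 6.08% (and, past 2-fold, 0.781% lower and 1.16% higher), and 5.37% of these genes lay as low as TAP1 or lower. With 1 probe set, TAP1 has no spread of its own.

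PSMB9, which encodes the inducible counterpart of PSMB6, starts 188 bases beyond the end of TAP1 in the files' hg18 positions and runs from 32929915 to 32935606. Its probe sets measured 4634 and 5830 in LYAR-shRNA cells, against 6579 and 7432 in scramble-shRNA cells. Both probe sets were lower on the LYAR-shRNA array, at -0.51 and -0.35, with a gene mean of -0.43 ± 0.11 (SD, n = 2 probe sets). Among the 4228 brightest genes 11.5% were as low or lower. Both come from 1 pair of arrays, so they are no replicates of the cells.

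LYAR itself measured 1036 in LYAR-shRNA cells and 1925 in scramble-shRNA cells, 53.8% of the control level, the direction the labels give. Of 10 colon epithelial markers 8 passed the filter, while KRT20 and CDX1 did not. Of the 8, 0 reached 1.5-fold in either direction (15.0% higher and 11.0% lower over all passing genes). Leukocyte and antigen-presenting cell markers, whose cells carry much class I, had summed intensities of 2530 in LYAR-shRNA cells and 3203 in scramble-shRNA cells over 17 genes, with 9 past the filter. Over all 17 markers, 8 were above and 9 below 0, with a median of -0.15, beside 0.02 over all measured genes. Of the 9 that passed, 5 were past 2-fold lower by their mean log2 values and 1 past 2-fold higher (3.56% and 5.06% of all passing genes). The higher one was CD83, which measured 895 in LYAR-shRNA cells and 388 in scramble-shRNA cells. The 5 were CD68 and the class II genes HLA-DPB1, HLA-DPA1, HLA-DRA and HLA-DRB1; 4 of them held probe sets close to the level of the random control probes (30.3 in LYAR-shRNA cells, 32.7 in scramble-shRNA cells), and as bounds they ranged from at least 1.09-fold lower for HLA-DPA1 to at least 3.68-fold lower for CD68. The class II genes among these 5 passed the filter through the scramble-shRNA array alone, where they were higher. CD74 and CD14, which passed, gave -0.84 and -0.67, and HLA-DMA, which also passed, gave 0.50. PTPRC, LYZ, ITGAM and CD86 were among those that did not pass. For 8 markers of B and T cells the sums were 333 in LYAR-shRNA cells and 755 in scramble-shRNA cells, and 6 of them had all their probe sets close to random-probe level in LYAR-shRNA cells, against 3 in scramble-shRNA cells. CD79A, of B cells, was at least 5.13-fold lower and CD3E, of T cells, at least 1.75-fold lower. Only these 2 passed the filter, and they did so through the scramble-shRNA array alone. CD8A, of T cells, went the other way, at 79.1 in LYAR-shRNA cells and 35.2 in scramble-shRNA cells, at least 1.21-fold higher. MS4A1 and CD2 were close to random-probe level on both arrays. Both populations were a cell line sorted by the GFP of the vector, and their purity was not tested. The part of such signal in the lower TAP1 and PSMB9 values was not tested. Fewer cells of a type and less RNA per cell cannot be told apart in bulk RNA.

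PSMB8, the other inducible subunit of this set and the counterpart of PSMB5, lies on the far side of TAP1, 272 bases from it in hg18, at 32916471 to 32920690. It gave 2884, 2600 and 2074 in LYAR-shRNA cells, against 3155, 2573 and 1817 in scramble-shRNA cells. Its probe sets went both ways, from -0.13 to 0.19, and the mean of 0.03 ± 0.16 (SD, n = 3 probe sets) was within that spread. The neighbouring genes PSMB8 and PSMB9 therefore differed from each other in direction on these arrays, though PSMB8 had no settled sign: its brightest probe set gave -0.13 and centring gave -0.003.

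TAP2 encodes the second chain of the transporter and lies at 32897587 to 32914525. Its probe sets measured 713, 637, 877 and 524 in LYAR-shRNA cells, against 951, 790, 834 and 476 in scramble-shRNA cells. The first pair was lower on the LYAR-shRNA array, at -0.42 and -0.31, and the other pair slightly higher, at 0.07 and 0.14. The files place the 4 probe sets on spans with different ends. The mean of -0.13 ± 0.28 (SD, n = 4 probe sets) was smaller than their spread and became 0.07 with the brightest probe set alone.

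TAPBP, which encodes tapasin, was the highest of the 9 genes. Its probe sets, between 33375448 and 33389967, gave 734, 863, 16796 and 707 in LYAR-shRNA cells, against 699, 776, 15040 and 468 in scramble-shRNA cells. Each was higher on the LYAR-shRNA array, though 3 of them by no more than 0.16, while the dimmest gave 0.60. The mean was 0.24 ± 0.24 (SD, n = 4 probe sets), or 0.16 with the brightest probe set. The bright probe set is the one whose span begins at 33375448, lower than the others, and intensities of different probe sets cannot be compared with one another as amounts of RNA.

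**Figure D1:**
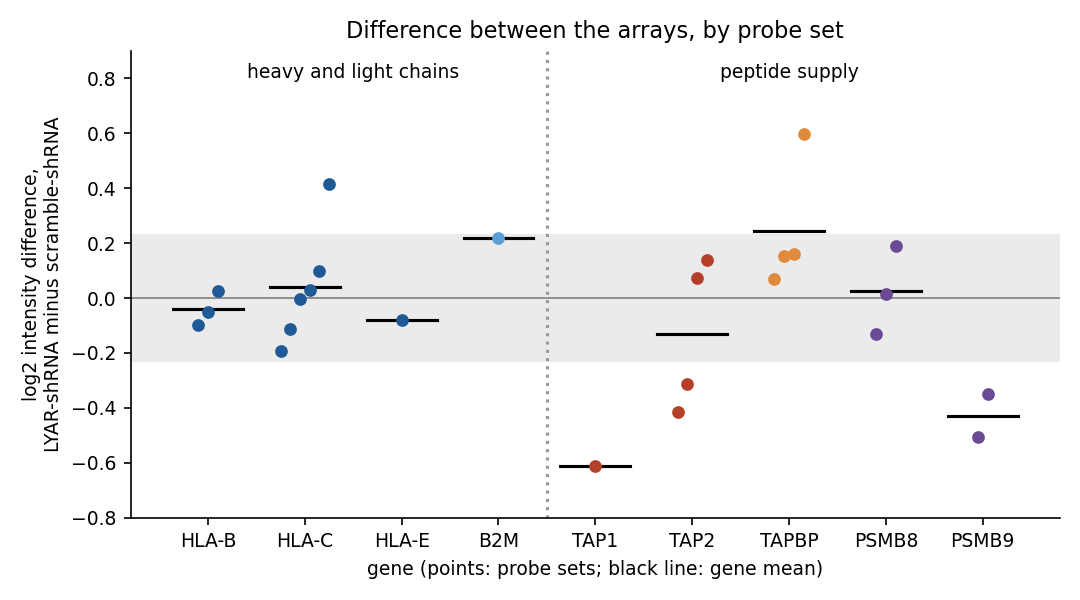
Log2 intensity difference, LYAR-shRNA minus scramble-shRNA (vertical axis), for each probe set (points) and gene mean (black lines), with chain genes on the left and peptide supply genes on the right. The grey band is ± 0.230, the SD pooled over probe sets within genes for the 4228 brightest genes. TAP1, both PSMB9 probe sets and the TAP2 probe sets at -0.42 and -0.31 lie below it. The TAPBP probe set at 0.60 and the HLA-C probe set at 0.42 lie above it, and all HLA-B and HLA-E probe sets lie inside it.

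The heavy chain genes encode the peptide-binding chain of the molecule; HLA-B and HLA-C are classical, highly polymorphic chains, and HLA-E shows peptides from other class I chains to natural killer cells. HLA-B, at 31429627 to 31432923 on chromosome 6 in hg18, measured 36298, 33980 and 34214 in LYAR-shRNA cells, against 38840, 35162 and 33624 in scramble-shRNA cells. The probe sets differed by -0.10 to 0.03, with a mean of -0.04 ± 0.06 (SD, n = 3 probe sets), which was smaller than their spread. HLA-C, at 31344506 to 31347842, was read by 6 probe sets that ran from 26662 to 48387 (median 36062) on the LYAR-shRNA array and from 24909 to 44322 (median 34673) on the scramble-shRNA array. Of these, 3 were higher and 3 lower on the LYAR-shRNA array. The mean was 0.04 ± 0.21 (SD, n = 6 probe sets), and the highest, 0.42, came from 1 probe set at 48387 in LYAR-shRNA cells and 36267 in scramble-shRNA cells. HLA-E, at 30565249 to 30569077, measured 12659 in LYAR-shRNA cells and 13392 in scramble-shRNA cells with its single probe set, a difference of -0.08.

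All 10 heavy chain probe sets were among the brightest 2.37% of the LYAR-shRNA array and 2.17% of the scramble-shRNA array. The 914 probe sets at least that bright on both arrays had a median difference of 0.01 with an SD of 0.24, and 95% of them lay between -0.50 and 0.47. The highest intensities were 63058 in LYAR-shRNA cells and 60044 in scramble-shRNA cells, and how far a bright probe set can still rise is not given in the sources used here. Class I heavy chain genes are near copies of each other, the files hold no probe sequences, and 4 of the 10 probe sets are placed on an alternate haplotype of chromosome 6. How far a probe set named for HLA-B or HLA-C also reads the other heavy chains was not tested, so their separate values are uncertain. A further probe set that the files place over HLA-B, and name for no gene, measured 42147 in LYAR-shRNA cells and 35232 in scramble-shRNA cells, a difference of 0.26.

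B2M, which encodes the light chain shared by all class I molecules, is the member that lies outside the MHC, on chromosome 15 at 42790976 to 42797649 in hg18. Its 1 probe set measured 2225 in LYAR-shRNA cells and 1915 in scramble-shRNA cells. The difference of 0.22 was just within 0.230, the SD pooled over the probe sets of genes this bright. The TAPBP mean of 0.24 was just beyond it. That SD is the spread among probe sets on the same 2 arrays and does not measure how far cultures or arrays differ.

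**Figure D2:**
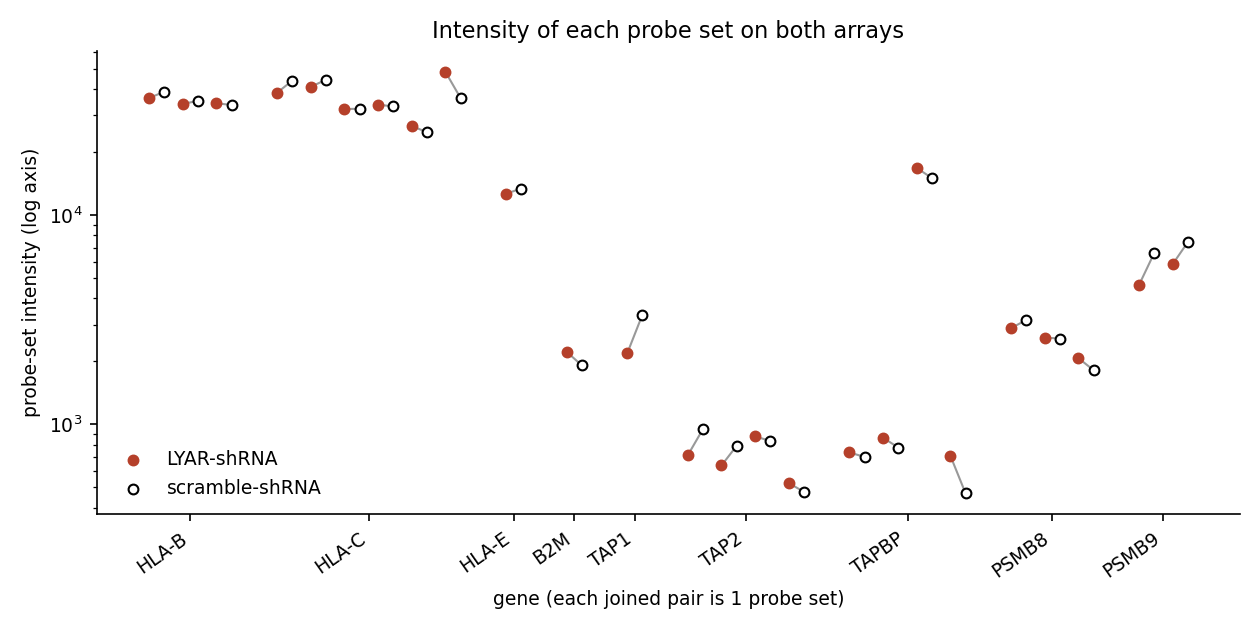
Intensity (vertical axis, log scale) of every probe set of the 9 genes, with LYAR-shRNA as filled and scramble-shRNA as open points joined for each probe set. The pairs of TAP1 and PSMB9 slope toward a higher scramble-shRNA value, while those of HLA-B stay nearly level between 33624 and 38840.

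Set side by side, the 5 peptide supply genes had a median of -0.13 (range -0.61 to 0.24) and the 4 chain genes a median of 0.00 (range -0.08 to 0.22). The chain range lay inside the peptide supply range, so the groups overlapped. The gap between the medians was -0.13. With the brightest probe set of each gene it shrank to -0.04, and the chain median became -0.09. The peptide supply median is the value of TAP2, with TAP1 and PSMB9 below it and PSMB8 and TAPBP above it. Over all 9 genes 4 were above and 5 below 0, with a median of -0.04, beside 54.6% above, 45.4% below and a median of 0.05 over all passing genes. Among the 4228 brightest genes, which hold 8 of the 9, 51.8% were above and 48.2% below 0. Of the 25 probe sets 13 were above and 12 below 0, against 52.0% and 48.0% of all probe sets. None was past 2-fold (6.85% higher and 6.26% lower over all probe sets), while 1 of TAPBP was past 1.5-fold higher and that of TAP1 past 1.5-fold lower (17.5% and 16.0%). All 9 passed the filter, at intensities at least 14.3 times that of the random control probes.

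**Figure D3:**
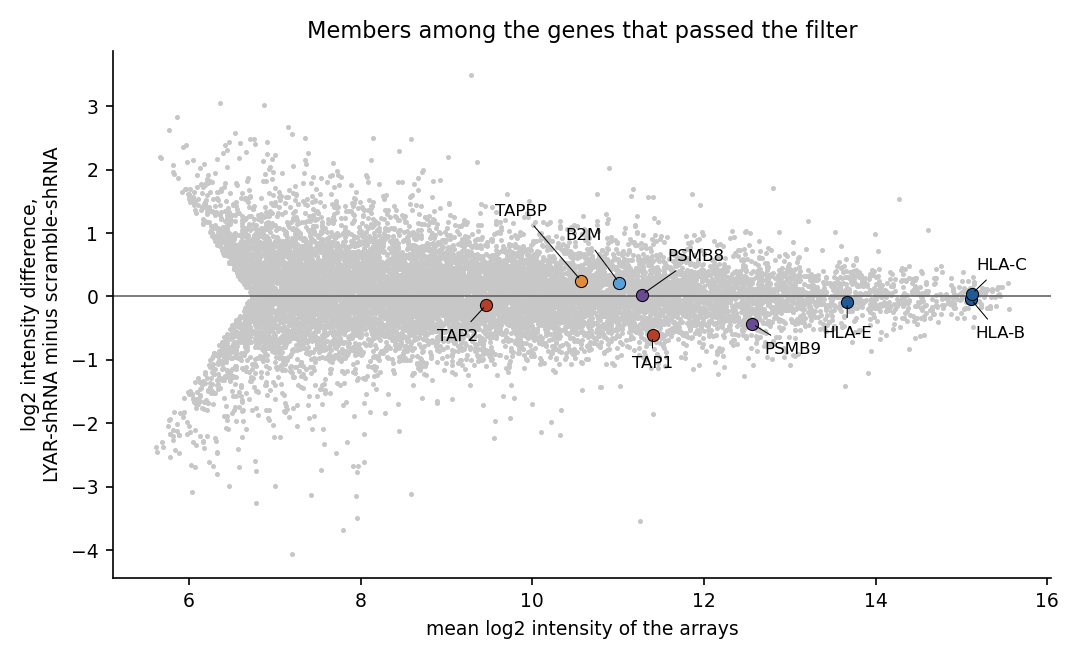
Log2 difference (vertical axis) against mean log2 intensity (horizontal axis) for the 12682 genes that passed the filter (grey), with the 9 genes marked. TAP1 at -0.61 and PSMB9 at -0.43 sit toward the lower edge of the cloud at their intensity, and HLA-B, HLA-C and HLA-E near 0 at the bright end.

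Within 100 kb of the TAP1-PSMB9 gap the files place 9 genes. The window was centred on TAP1 and PSMB9 because they had the lowest differences of the members, so their low place in it is no separate result. TAP2 and PSMB8 were at -0.13 and 0.03, and the other 5 were above 0. Of those 5, HLA-DQB2 and HLA-DMA, both class II genes, gave 0.64 and 0.50, and the pseudogene PPP1R2P1 gave 0.60. HLA-DOB and HLA-DMB, at 0.32 each, did not pass the filter. The 3 probe sets of HLA-DMA ranged from -0.26 to 1.22, and most of these neighbours were far dimmer than the class I genes, with 126 in LYAR-shRNA cells and 80.6 in scramble-shRNA cells for HLA-DQB2.

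**Figure D4:**
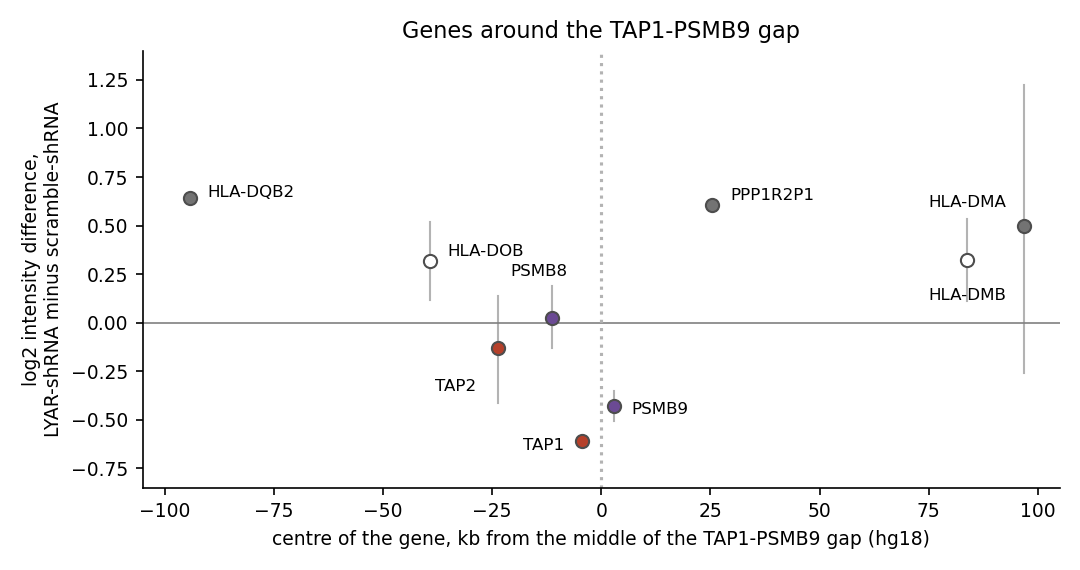
Log2 difference (vertical axis) of each gene within 100 kb of the TAP1-PSMB9 gap, by the distance of its centre from the middle of the gap (horizontal axis, kb). Points are gene means, grey lines the range over probe sets, and white points genes under the filter. TAP1 and PSMB9, on which the window was centred for their low values, are the lowest.

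The remaining genes of peptide supply and loading were taken from a list of 26, all measured and 25 past the filter. Of these 25, 11 were above and 14 below 0 (54.6% and 45.4% of all passing genes), and 0 reached 2-fold in either direction (5.06% higher and 3.56% lower). There were 4 past 1.5-fold higher and 1 past 1.5-fold lower (15.0% and 11.0% of all passing genes). Their median of -0.08 stood beside 0.05 over all passing genes, and the median of all 26, -0.09, became 0.11 with the brightest probe set of each gene. Grouped by role after their values were seen, 6 of 7 proteasome genes were below 0, where 45.4% of all passing genes lay. Above 0 were 4 of 6 chaperone genes and 5 of 8 peptidase genes, against 54.6% of all passing genes. Genes named from here to the end of the chaperones were also chosen after their values were seen, other than SEC61A1, SEC61B, PDIA3 and SPPL2A. The 8 peptidase genes include ERAP1, which did not pass the filter and was below 0. Those above 0 include TPP2, at 0.0003 with probe sets from -0.79 to 0.52.

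The constitutive catalytic subunits that PSMB8 and PSMB9 replace were also slightly lower on the LYAR-shRNA array. PSMB6, replaced by PSMB9, measured 2823 in LYAR-shRNA cells and 3523 in scramble-shRNA cells, a difference of -0.32. PSMB5, replaced by PSMB8, measured 3997 in LYAR-shRNA cells and 4756 in scramble-shRNA cells, a difference of -0.25. PSMB9 minus PSMB6 was therefore -0.11, and PSMB8 minus PSMB5 was 0.28. PSMB7 and PSMB10, the constitutive and inducible forms of the remaining catalytic subunit, gave -0.12 and -0.19. PSME1 and PSME2, which encode an interferon-induced activator of the proteasome, gave -0.14 and -0.33. PSME3, which encodes a nuclear activator of the proteasome, was the member of the group above 0, at 0.09, with probe sets from -0.24 to 0.28. PSMB9 thus lay close to its constitutive partner in difference, and both were lower.

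The chaperones that help class I molecules fold gave values on both sides of 0. PDIA3, a disulfide isomerase bound to tapasin in the loading complex, had a mean difference of 0.92 from unlike probe sets. The bright one measured 14608 in LYAR-shRNA cells and 11371 in scramble-shRNA cells, a difference of 0.36. The dim one measured 336 in LYAR-shRNA cells and 121 in scramble-shRNA cells, a difference of 1.47. CANX, which encodes calnexin, gave 0.59 with all 4 probe sets above 0, CALR, which encodes calreticulin, 0.33, and TAPBPL, a tapasin relative that edits peptides, 0.41. HSPA5, the general chaperone of the endoplasmic reticulum, and UGGT1, a folding sensor for glycoproteins, gave -0.31 and -0.08, with the UGGT1 probe sets at -0.97 and 0.81. The single HSPA5 probe set was dim, at 124 in LYAR-shRNA cells and 153 in scramble-shRNA cells. SPPL2A, an intramembrane protease, differed by 0.81. The translocon genes SEC61A1 and SEC61B, whose products let new chains into the endoplasmic reticulum, differed by -0.79 and -0.34. Their intensities were 522 and 2457 in LYAR-shRNA cells, against 904 and 3108 in scramble-shRNA cells.

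Regulators of class I genes, among them interferon receptor chains, were read from a list of 24, of which 19 passed the filter. The list was not limited to factors that switch these genes on. Of the 19, 13 were above and 6 below 0 (54.6% and 45.4% of all passing genes), with a median of 0.23 beside 0.05 over all passing genes. None reached 2-fold (5.06% higher and 3.56% lower), while 4 were past 1.5-fold higher and 4 past 1.5-fold lower (15.0% and 11.0%). NLRC5, the transactivator of class I genes, measured 245 in LYAR-shRNA cells and 405 in scramble-shRNA cells. Its difference was -0.72, but its probe sets gave -1.18 and -0.27. IRF1, an interferon-induced activator, measured 335 and 376 in LYAR-shRNA cells, against 553 and 617 in scramble-shRNA cells, and was also lower, at -0.72 and -0.71. RELA, an NF-kB subunit, had 4 probe sets from -0.89 to -0.54. NFYA was also past 1.5-fold lower, at -0.69. On the other side JAK1 and RFX5 were past 1.5-fold higher, at 0.72 and 0.62. For JAK1, 1 probe set was close to random-probe level in scramble-shRNA cells. NFKB1, the other NF-kB subunit in the list, gave 0.30, with all 3 probe sets above 0. IRF1, RELA, NFYA, JAK1, RFX5 and NFKB1 were named after their values were seen.

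IFNAR2, a chain of the receptor for type I interferon, had a mean of 0.92 that rests partly on probe sets near the random probes, while the 2 clear of them gave 0.45 and 0.64. NFYB, a subunit of the Y box factor, had a mean of 0.77 with 2 of 4 probe sets close to random-probe level in scramble-shRNA cells. IRF8, a factor of blood cells, was close to random-probe level in LYAR-shRNA cells and at least 1.12-fold lower.

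Relatives of class I molecules, some of which pair with B2M and some of which are read by natural killer cells, were taken from a list of 13, of which 11 passed. Here 7 were above and 4 below 0, with 1 past 2-fold higher, against 5.06% of all passing genes, and 1 past 2-fold lower, against 3.56%. The median of the 11 was 0.12. MICB, a stress-induced ligand of the killer-cell receptor NKG2D, measured 1119 and 511 in LYAR-shRNA cells, against 2623 and 953 in scramble-shRNA cells. Both of its probe sets were lower on the LYAR-shRNA array, at -1.23 and -0.90. MICA, its neighbour and relative, had a mean of -0.64. Its probe sets measured 1203, 555 and 36066 in LYAR-shRNA cells, against 2162, 1080 and 38640 in scramble-shRNA cells. The dimmer pair gave -0.85 and -0.96, and the bright one -0.10. What the bright probe set reads was not tested, so the mean is uncertain. At the other end AZGP1, a secreted class I-like protein, differed by 1.04, and MR1, which shows vitamin metabolites to T cells, by 0.91. They measured 144 and 793 in LYAR-shRNA cells, against 70.1 and 422 in scramble-shRNA cells. AZGP1 passed the filter through the LYAR-shRNA array alone. Its probe sets in scramble-shRNA cells, at 69.2 and 70.9, were just over 2 times the random-probe level.

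**Figure D5:**
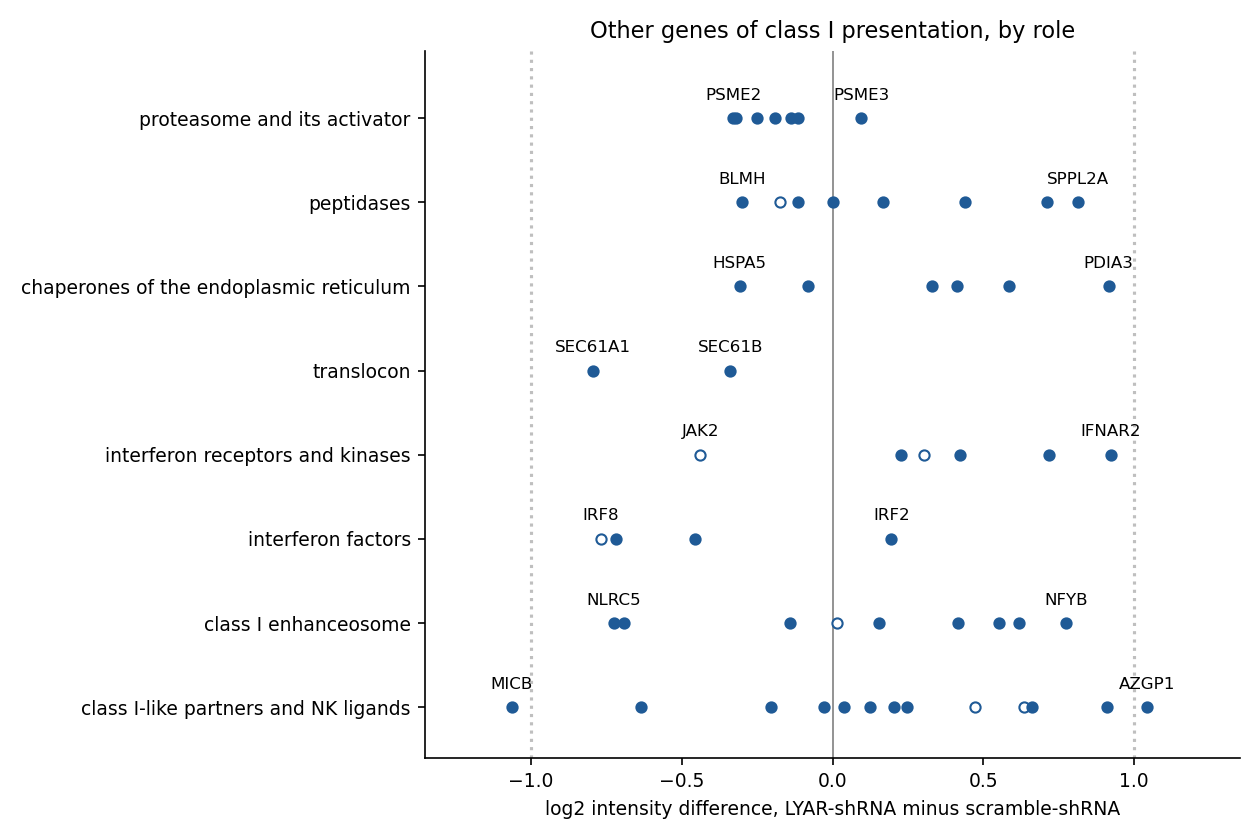
Log2 difference, LYAR-shRNA minus scramble-shRNA (horizontal axis), of other pathway genes by role, with filled points for genes that passed the filter, open points for those that did not, and dotted lines at 2-fold. The lowest and highest gene shown in each row are named. Of 7 proteasome genes 6 are below 0, and MICB and AZGP1 are the 2 genes past 2-fold. AZGP1 passed the filter through the LYAR-shRNA array alone.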

How the data were processed

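Total RNA was hybridised to single-colour NimbleGen arrays, 1 per shRNA. The authors deposited linear intensities, 1 per probe set, made with RMA per the submitters' processing notes. The version and settings of RMA, and whether other arrays shared the normalization, are not stated there. Each of the 25 probe sets had 3 probes, per the file headers. Where RMA brings arrays to a shared distribution, a shift of most genes would not be visible. Gene IDs in the files named 42947 probe sets, of which 90.6% were in the RefSeq table of GRCh38.p14, used to update symbols. Log2 intensities of a gene's probe sets were averaged, with no pseudocount. The 12682 passing genes reached 105.9, the median of all genes, on their brighter array. Random control probes, 5000 per array, measured 30.3 (LYAR-shRNA) and 32.7 (scramble-shRNA); under 2 times these, an intensity was treated as a bound.

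Genes were counted at 2-fold and 1.5-fold with no test. All members were named; of the 3 lists of pathway genes, regulators and class I relatives, genes past 2-fold and the 2 furthest in each direction were named, and others are said to be chosen after their values were seen. No gene was named for a like pattern, since 2 arrays give 1 difference. The value of 1 regulator is not reported here. The members, lists and thresholds were chosen with earlier results of these data known. Calculations used Python 3.11.15, pandas 2.3.3 and statsmodels 0.14.6 and were tested on simulated data.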

Additional observations from a re-analysis of the deposited data

How the results depend on the processing

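The differences of HLA-B, HLA-E, B2M, TAP1, TAPBP and PSMB9 kept their sign under 10 alternatives (brightest or median probe set, series value table, centring, lowess trend removed, quantile normalization, pseudocount of 32, dim probe sets left out, no filter, and, chosen after seeing the data, alternate haplotype probe sets left out). Not every alternative could move a gene: the series value table, no filter and leaving out dim probe sets left all members as they were, and the value of TAP1, with 1 probe set, moved under 4 of the 10 and that of PSMB9 under 5. TAP1 ranged from -0.64 to -0.60 and PSMB9 from -0.46 to -0.35. HLA-C, TAP2 and PSMB8 changed sign with the brightest probe set, to -0.11, 0.07 and -0.13, and PSMB8 also with centring. The gap between peptide supply and chain medians ranged from -0.18 to -0.04. The number of members past 2-fold stayed 0 and past 1.5-fold lower stayed 1 under the 9 alternatives for which they were counted. Over all genes, the counts at 2-fold, 642 higher and 452 lower, became 404 and 294 with the pseudocount and 1167 and 1025 with no filter, where more dim genes were counted. The excess of higher over lower was absent with the lowess trend removed (547 higher and 559 lower) and small with quantile normalization (564 and 530). No paired analysis was possible because each group has 1 array. Precision is limited by the 2 arrays.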
